A study of Schizosaccharomyces pombe with 12 samples.

Results

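Between 2 and 4 h after wild-type fission yeast (*Schizosaccharomyces pombe*) was transferred from YES to ePMGT(+PO4), a defined medium with phosphate, 510 poly(A)+ RNAs rose and 507 fell, most of them by less than 2-fold. The comparison made here sets the 4 h libraries against the 2 h libraries, 3 of each and 6 of the 12 libraries in the series. Features were kept where the group average was 100 normalized reads or more at either time, which left 5358 of the 6988 features (4804 coding genes, pseudogenes among them, and 554 noncoding RNAs). The minimum uses both of the averages compared, so a feature near it could enter through the time at which it was higher. Of those kept, 86 reached 100 at one time only, 27 of them at 4 h and 59 at 2 h. At the edge, 3 features with a higher average of 100.5 to 100.6 were kept and 8 with one of 99.1 to 99.97 were left out.

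Both groups were the haploid *h-* strain AGP72, for which the labels give no genotype beyond the mating type. The study lists *ade6*, *his3*, *ura4* and *leu1* alleles that are mutant in all its strains. Both groups had grown first in YES (yeast extract plus supplements, a rich medium), from which the 0 h libraries came, and then in the defined medium for 2 or 4 h. The defined medium supplies glucose, glutamate, thiamine, adenine, uracil and a mix of amino acids, and the 8 h libraries came from it as well. The study calls the 3 libraries of a time biological replicates, and the sources used here do not say whether the same cultures were sampled at both times. No culture left in YES was sampled at 2 or 4 h, so time in the new medium, recovery from handling and growth of the culture cannot be told apart.

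A change of medium alters which RNAs a yeast cell needs. Permeases and enzymes for scarce or alternative nutrients are switched on or off through dedicated regulators, among them the iron-sensing repressor Fep1 and the copper-sensing activator Cuf1. Chaperones such as Hsp90 and Hsp70 fold new proteins and rescue damaged ones, and their RNA levels follow the load of unfolded protein through the heat shock factor Hsf1. The RNAs for ribosomes and their assembly factors follow growth and the supply of amino acids.

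Values are the authors' means of normalized read counts over the 3 libraries of a time, called averages below. Where 4 averages follow a gene, they stand in the order 0, 2, 4 and 8 h. Values for single libraries are not analysed here, so neither a spread between libraries nor the number of libraries showing a direction can be given. A value written as x ± y is the log2 ratio of the 4 h average to the 2 h average with its standard error, which was rebuilt from a dispersion solved for each feature from the deposited standard errors. The error therefore reflects the spread that the authors' model assigned to the feature, and it covers 3 libraries a group. "Rose" and "fell" denote a Benjamini-Hochberg adjusted p of 0.05 or less over the 5358 features in this rebuilt Wald test, at any fold. The median standard error was 0.063, with 0.039 and 0.155 at the 5th and 95th percentiles. In RNA from a whole culture, a change in some cells and a smaller change in all cells cannot be told apart. The group averages summed to 16.8 M normalized reads at 2 h and 17.6 M at 4 h, against 17 M at 8 h and 16.9 M at 0 h.

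Few RNAs changed by 2-fold or more, and many changed by less. In all, 510 features rose (9.52% of those tested) and 507 fell (9.46%), with a median log2 change of 0.0011 over all features. The median size of the changes that passed was 1.18-fold. At 1.5-fold or more, 50 features rose (0.933%) and 58 fell (1.08%). At 2-fold or more, 6 rose (0.112%) and 8 fell (0.149%). The counts include the 86 features that reached the minimum at one time only, of which 8 rose and 17 fell, with 1 rise and 3 falls of 2-fold or more. Where such a feature is named below, its ratio is a description and no p is given. With the minimum set on the 0 h and 8 h averages instead, a choice made after seeing the data, 511 features rose and 503 fell, 7 and 5 of them by 2-fold or more. Coding genes accounted for 482 of the rises and 426 of the falls, and noncoding RNAs for 28 rises and 81 falls. When the averages were rescaled to equal sums at both times, all log2 values dropped by 0.072, and 237 features rose while 1246 fell. With a t distribution of 8 degrees of freedom in place of the normal one, 180 rose and 184 fell. The 14 changes of 2-fold or more passed under both, although *frp1*, at 0.96 on the log2 scale, was short of 2-fold with equal sums. They include the 1 rise and 3 falls that reached the minimum at 1 time only. For those, passing is no support, because the difference itself helped to admit them. Of the genes described below, *tdh1*, *pyk1*, *pfk1*, *adh1*, *adh4*, *cdc37*, *ght1*, *ght3*, *str2*, *isa1*, *fet4*, *ctr4*, *ctr5*, *urh1*, *fur4*, *ura6*, *put4*, *rps1102*, *SPAC1039.08* and *SPBC1652.02* lost their call with the t distribution. With equal sums *adh1*, *pfk1*, *cdc37*, *str2* and *rps1102* lost theirs, and *toe1*, *SPAC1002.16c*, *fep1*, *amt2*, *glt1*, *eno102*, *fbp1* and *ura5* passed as lower at 4 h.

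**Figure D1:**
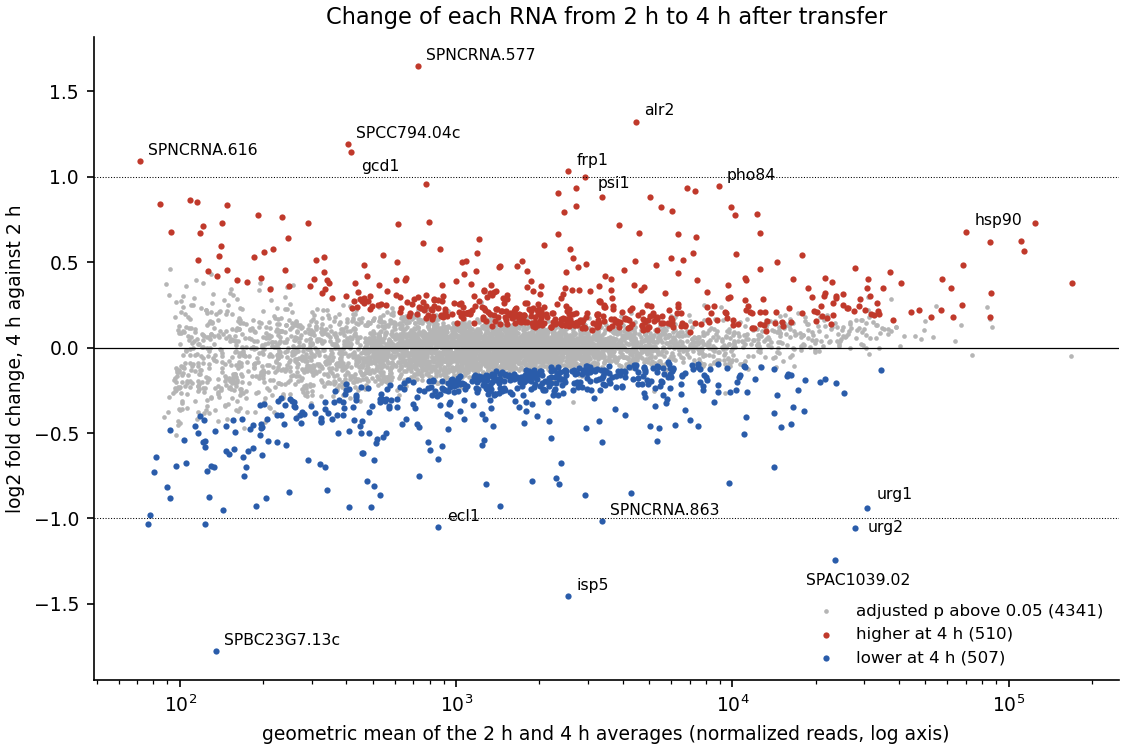
Log2 fold change of each of the 5358 features between 2 h and 4 h (vertical axis) against the geometric mean of its 2 h and 4 h averages in normalized reads (horizontal log axis); each point is 1 feature, red where it rose, blue where it fell and grey where the adjusted p was above 0.05. Dotted lines mark 2-fold changes, and few points lie outside them, with *SPNCRNA.577* highest and *SPBC23G7.13c* lowest.

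The 4 h to 2 h ratio does not use the 8 h and 0 h averages, which show where the changing RNAs stood in the long run. Its standard error does draw on the 0 h averages and on dispersions that the authors fitted with all these libraries. The calls for 8 h against 0 h are therefore not independent of those for 4 h against 2 h. Of all features with an average of 100 or more at 0 or 8 h, 28.4% were higher at 8 h than at 0 h by the same rule and 25.4% were lower. Of the 509 features that rose between 2 and 4 h and could be tested, 287 were higher at 8 h than at 0 h and 57 were lower. Of the 502 that fell, 314 were lower at 8 h and 73 were higher. Among the larger falls, of 1.5-fold or more, 33 of 53 were lower at 8 h than at 0 h and 17 were higher. The falls thus included RNAs of both kinds, some that ended below their level in YES and some that stayed above it after coming down from 2 h.

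Chaperone RNAs rose together. Of the 19 members of the chaperone list, 17 rose and *mge1* fell, against 9.52% and 9.46% of all features, with a median log2 change of 0.40 against 0.0011 over all features. Their averages summed to 561970, 405554, 568334 and 501232 normalized reads at the 4 times in order, so the 2 h group was the low one and the 4 h sum was close to that in YES. At 8 h, 12 of the 19 were lower than at 0 h and 1, *hsp16*, was higher, against 25.4% lower and 28.4% higher among all features. With equal sums, and with the t distribution, 16 rose and 1 fell.

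The RNA for *psi1*, an Hsp40 protein that works with Hsp70, averaged 3455, 2073, 4138 and 3035 reads at 0, 2, 4 and 8 h. It rose 1.996-fold from 2 to 4 h, just short of 2-fold (0.997 ± 0.083, adjusted p = 1.78e-30), with a 95% interval of 0.83 to 1.16 on the log2 scale. The disaggregase *hsp104*, which pulls proteins out of aggregates, averaged 3372, 2476, 4570 and 3452 (0.88 ± 0.076, adjusted p = 9.3e-29). The cytosolic Hsp70 gene *ssa1* averaged 4588, 3693, 6797 and 4667 (0.88 ± 0.086, adjusted p = 4.54e-22). Its 4 h average was the highest of the 4, and at 8 h it did not differ detectably from 0 h (0.025 ± 0.086, adjusted p = 0.83). The co-chaperone *sti1*, which joins Hsp70 to Hsp90, averaged 16155, 9389, 16147 and 13108 (0.78 ± 0.054, adjusted p = 2.82e-44). These 4 had the largest changes in the list, and the other chaperones described here were chosen after their values were seen.

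The Hsp90 gene itself, *hsp90*, was among the most abundant, with averages of 85228, 55340, 88592 and 75106 reads at 0, 2, 4 and 8 h (0.68 ± 0.05, adjusted p = 7.72e-40). The major Hsp70 gene *ssa2* averaged 149616, 96744, 160462 and 139498 (0.73 ± 0.074, adjusted p = 1.72e-20). Of the Hsp90 partners, *aha1*, which stimulates its ATPase, changed by 0.51 ± 0.054, the p23 protein *wos2* by 0.50 ± 0.039 and the kinase adaptor *cdc37* by 0.13 ± 0.046 (adjusted p = 0.0273). All 3 rose, and *cdc37* had the smallest change of the 17 chaperone genes that did. The ribosome-associated Hsp70 *sks2* did not pass (0.12 ± 0.063, adjusted p = 0.162). Outside the list, the Hsp70 exchange factor *fes1* (0.67 ± 0.066) and the mitochondrial disaggregase *hsp78* (0.67 ± 0.046) rose as well.

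The listed chaperones of mitochondria and of the endoplasmic reticulum (ER) had log2 changes from -0.21 to 0.41. Most of the cytosolic genes above lay over that range, but *cdc37*, *sks2* and the listed *hsp16*, described below, did not. The mitochondrial *hsp78*, outside the list, lay over it as well. No difference between compartments was tested. The mitochondrial Hsp60 gene *mcp60* averaged 36582, 26912, 35616 and 29634 reads at 0, 2, 4 and 8 h (0.40 ± 0.054) and its partner *hsp10* averaged 14036, 9649, 12798 and 12336 (0.41 ± 0.053). The mitochondrial Hsp70 *ssc1* (0.35 ± 0.065) and its Hsp40 partner *mdj1* (0.34 ± 0.053) rose, while the exchange factor of the same machine, *mge1*, fell from 5059 at 2 h to 4374 at 4 h (-0.21 ± 0.037, adjusted p = 5.48e-07). The ER Hsp70 *bip1* averaged 30714, 27298, 34724 and 31496 (0.35 ± 0.039, adjusted p = 3.14e-17). The CCT chaperonin, a ring of 8 different subunits that folds actin and tubulin, did not move with them: 0 of its 8 RNAs passed, their log2 changes lay between -0.011 and 0.062, and their averages summed to 58305 at 2 h and 59488 at 4 h.

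Several glycolytic RNAs were also lowest at 2 h. Of 16 genes for glycolysis and fermentation, 11 rose (68.8%, against 9.52% of all features) and 1 fell (6.25%, against 9.46%), with a median of 0.28. With equal sums 8 rose and 2 fell. With the t distribution 6 rose. Phosphoglycerate kinase, *pgk1*, averaged 94716, 69234, 106454 and 103959 reads at 0, 2, 4 and 8 h (0.62 ± 0.076, adjusted p = 4.06e-14). The enolase gene *eno101* averaged 113014, 89332, 137597 and 132395 (0.62 ± 0.13, adjusted p = 4.5e-05). The main glyceraldehyde-3-phosphate dehydrogenase gene, *tdh1*, averaged 121049, 93082, 137969 and 128386, a change of 0.57 ± 0.14 from 2 to 4 h. In each of these 3 the 2 h average was the lowest of the 4. The second dehydrogenase gene, *gpd3*, rose at each time instead, averaging 3449, 5070, 8024 and 15484 (0.66 ± 0.12, adjusted p = 6.92e-07).

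Smaller rises were seen for the phosphoglycerate mutase *gpm1* (0.48 ± 0.11), the triose phosphate isomerase *tpi1* (0.35 ± 0.069), the pyruvate kinase *pyk1* (0.32 ± 0.10) and the phosphofructokinase *pfk1* (0.22 ± 0.072), these 4 having been chosen after their values were seen. The minor enolase gene *eno102* did not pass (-0.47 ± 0.22, adjusted p = 0.111). The alcohol dehydrogenase *adh1* rose from 80584 at 2 h to 91340 at 4 h (0.18 ± 0.068, adjusted p = 0.0417), and *adh4*, a zinc-responsive alcohol dehydrogenase, fell from 5930 at 2 h to 5082 at 4 h (-0.22 ± 0.063, adjusted p = 0.00396) before standing at 22033 at 8 h. Further downstream, of 15 citric acid cycle genes 2 rose (13.3%, against 9.52% of all features) and 0 fell, with a median of 0.07. With equal sums 1 rose and 2 fell. Of 31 genes for the respiratory chain and ATP synthase 1 rose and 6 fell (19.4%, against 9.46%), with a median of -0.024. With equal sums 10 of these fell, and with the t distribution 0 did. The trehalose synthesis genes *tps1* (0.55 ± 0.081) and *tps3* (0.65 ± 0.081) and the trehalase gene *ntp1* (0.42 ± 0.09) all rose. Trehalose is a sugar that yeasts store and that protects proteins.

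**Figure D2:**
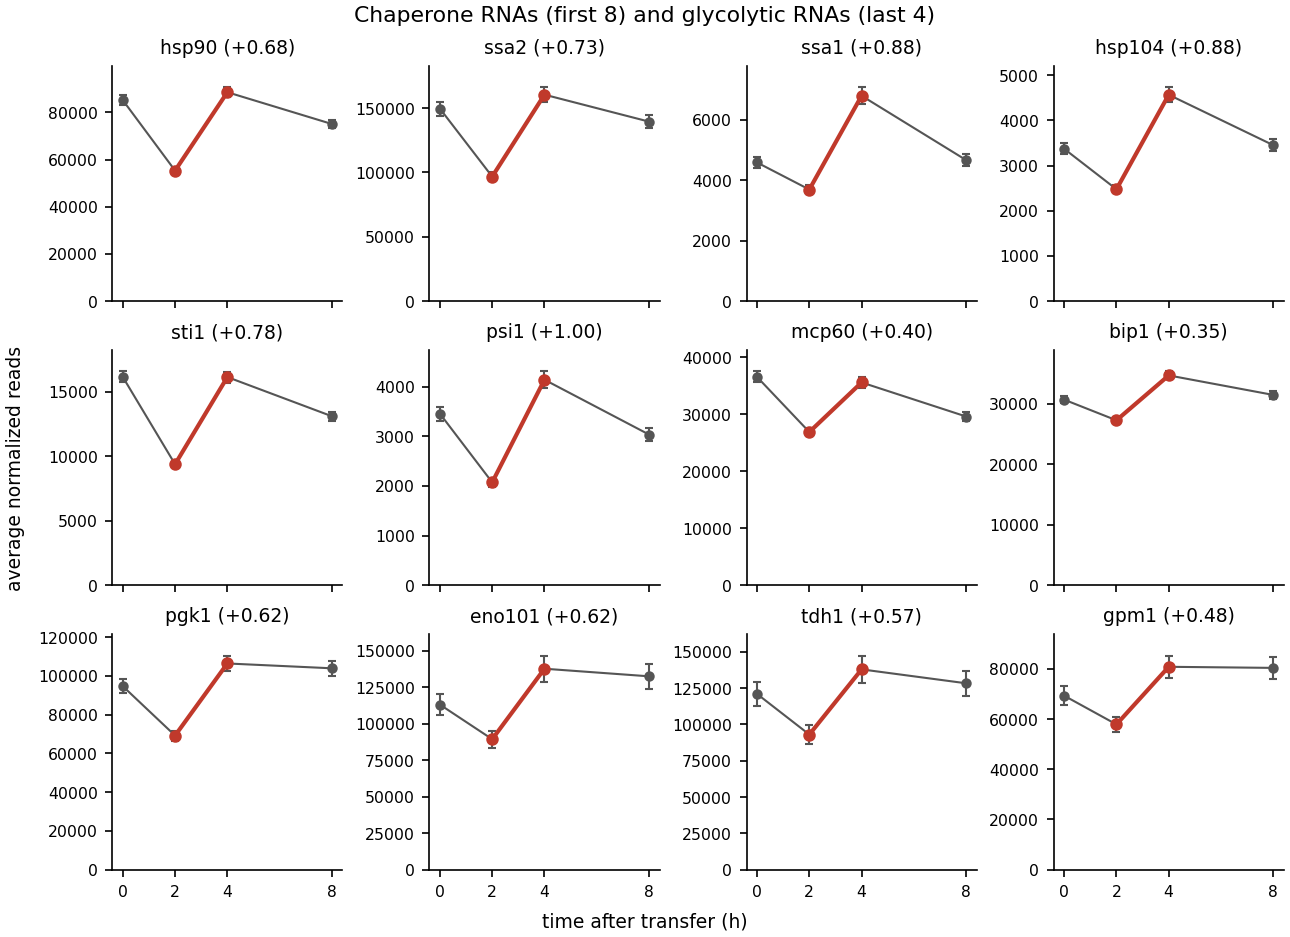
Averages in normalized reads (vertical axes, from 0) of 8 chaperone and 4 glycolytic RNAs at 0, 2, 4 and 8 h after transfer (horizontal axis); points are the authors' means of 3 libraries, bars are the standard error from the solved dispersion, the red segment is the change from 2 to 4 h and the number beside each name is its log2 value. In each panel the 2 h point is the lowest of the 4.

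Of the 6 hexose transporter (*ght*) genes above the minimum, 3 rose (50%, against 9.52% of all features). One, *ght3*, a gluconate transporter, fell (16.7%, against 9.46%). With the t distribution 2 rose and 0 fell. The high-affinity glucose transporter *ght5* averaged 2484, 4953, 9451 and 9492 reads at 0, 2, 4 and 8 h (0.93 ± 0.11, adjusted p = 2.93e-15). The level was reached by 4 h and did not move further to 8 h in the averages. The hexose symporter *ght4* averaged 349.7, 481, 793 and 1022 (0.72 ± 0.094, adjusted p = 9.76e-13), and *ght1* averaged 107, 126, 173 and 236 (0.45 ± 0.15, adjusted p = 0.0187). The *ght3* averages were 95.2, 269, 213 and 315 (-0.33 ± 0.12, adjusted p = 0.0406).

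A list of glucose-repressed genes that also holds the hexokinase gene *hxk2* had 14 members. Of these, 5 rose (35.7%, against 9.52% of all features) and 1 fell (7.14%, against 9.46%). Repression by glucose was not tested. With equal sums 3 rose and 2 fell. The glucose dehydrogenase gene *gcd1* averaged 228, 279, 617 and 1008 reads at 0, 2, 4 and 8 h and rose 2.21-fold (1.14 ± 0.10, adjusted p = 2.14e-29), one of only 4 coding genes that rose 2-fold or more. Its change up to 2 h was small beside that from 2 to 4 h. The hexokinase gene *hxk2* averaged 13410, 14437, 19082 and 19458 (0.40 ± 0.055, adjusted p = 1.4e-11), and the dihydroxyacetone kinase *dak1* rose from 4237 at 2 h to 5417 at 4 h (0.35 ± 0.054) while *dak2*, the second such kinase, fell from 947 at 2 h to 563 at 4 h (-0.75 ± 0.17, adjusted p = 0.000141). The gluconeogenic *fbp1*, fructose-1,6-bisphosphatase, did not pass (-0.38 ± 0.17, adjusted p = 0.0949), with averages of 89.4, 132, 102 and 282.

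Genes of reductive iron uptake continued to rise after 2 h. In this route ferric iron is reduced at the cell surface, oxidized by a multicopper oxidase and carried in by a permease. The ferric-chelate reductase *frp1* averaged 166, 1774, 3626 and 3756 reads at 0, 2, 4 and 8 h, a 2.04-fold rise from 2 to 4 h (1.03 ± 0.11, adjusted p = 2.51e-19). The oxidase *fio1* averaged 318, 4480, 6268 and 5880 (0.48 ± 0.077, adjusted p = 1.38e-08) and its permease partner *fip1* averaged 845, 10752, 14766 and 14464 (0.46 ± 0.07, adjusted p = 2.83e-09). The rise of the reductase was thus the larger of the 3, although the difference between the genes was not tested. The second reductase, *frp2*, did not pass (0.21 ± 0.16, adjusted p = 0.398), with averages of 84.9, 128, 148 and 235.

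The siderophore and heme genes behaved differently from one another. The heme transporter *str3* averaged 20.5, 1825, 1758 and 1546 reads at 0, 2, 4 and 8 h, and its change from 2 to 4 h did not pass (-0.054 ± 0.20, adjusted p = 0.899, 95% interval -0.45 to 0.34). The ornithine monooxygenase *sib2*, which begins the synthesis of the siderophore ferrichrome, averaged 872, 1596, 2044 and 2705 (0.36 ± 0.065, adjusted p = 1.44e-06). Of the siderophore transporters, *str2* rose (0.19 ± 0.065, adjusted p = 0.0212) and *str1* did not pass (0.19 ± 0.08, adjusted p = 0.0869). The iron-sensing repressor gene *fep1* did not pass either (-0.12 ± 0.072, adjusted p = 0.252). Of 21 genes for proteins that use iron, 1 rose (4.76%, against 9.52% of all features) and 2 fell (9.52%, against 9.46%). The sulfite reductase subunit *sir1* rose (0.28 ± 0.044). Biotin synthase *bio2* (-0.21 ± 0.033) and the iron-sulfur cluster assembly gene *isa1* (-0.16 ± 0.041) fell. With equal sums 8 of the 21 fell.

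Other metal transporters changed by less than 2-fold. The zinc transporter *zrt1* averaged 2573, 16685, 19183 and 26642 reads at 0, 2, 4 and 8 h (0.20 ± 0.041, adjusted p = 1.79e-05), and *fet4*, a transporter of iron and zinc, averaged 277, 413, 551 and 673 (0.42 ± 0.12, adjusted p = 0.00607). Both subunits of the plasma membrane copper transporter fell. The *ctr4* averages were 2749, 1086, 728 and 581 (-0.58 ± 0.22, adjusted p = 0.048) and the *ctr5* averages 2285, 1465, 1098 and 936 (-0.42 ± 0.13, adjusted p = 0.0121). Both had been falling since 0 h and continued to 8 h. The *ctr4* call was near the threshold. It was lost with a minimum average of 10 (adjusted p = 0.053) or none (0.056). It was also lost with dispersions of at least the median of similar features (0.053). Of the other 7 copper genes 0 passed, but with equal sums 6 of the 9 fell, and with the t distribution 0 did. The copper transporter of the spore membrane, *mfc1*, reached the minimum at 2 h only and averaged 53.4, 125, 67.9 and 52.4 (-0.88 ± 0.15).

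The uracil-regulated genes fell from a high level at 2 h. These genes, which in fission yeast respond to uracil in the medium, encode enzymes that salvage and break down pyrimidines. Of the 7 members of the list 5 fell (71.4%, against 9.46% of all features) and 0 rose (median -0.85). At 8 h all 7 were higher than at 0 h, against 28.4% of all features. The uracil phosphoribosyltransferase gene *urg2* averaged 1428, 40135, 19298 and 25998 reads at 0, 2, 4 and 8 h, so the 4 h level was 2.08-fold below that at 2 h (-1.06 ± 0.18, adjusted p = 3.18e-07). The GTP cyclohydrolase II gene *urg1* averaged 915, 42351, 22129 and 30721 (-0.94 ± 0.22, adjusted p = 0.000269). In both, the 8 h average lay between those at 4 h and 2 h.

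A second uracil phosphoribosyltransferase gene, *uck2*, averaged 457, 5742, 3188 and 3799 reads at 0, 2, 4 and 8 h (-0.85 ± 0.20, adjusted p = 0.000277), and the uridine hydrolase gene *urh1* averaged 519, 3939, 2166 and 2105 (-0.86 ± 0.22, adjusted p = 0.00101). The remaining gene of the cluster that fell was *urg3* (-0.79 ± 0.14, adjusted p = 2.43e-07). The transcription factor gene *toe1* (-0.15 ± 0.084, adjusted p = 0.222) and *SPAC1002.16c* (-0.19 ± 0.085, adjusted p = 0.0947) did not pass. The cytidine deaminase *cdd1*, chosen after its values were seen, averaged 220.5, 668, 382 and 418 (-0.81 ± 0.13, adjusted p = 1.53e-08). The uracil permease *fur4* fell by less, from 3363 at 2 h to 2830 at 4 h (-0.25 ± 0.071, adjusted p = 0.0047). Of the pathway that makes pyrimidines from scratch, *ura5* did not pass (-0.10 ± 0.044, adjusted p = 0.0863) and the uridylate kinase *ura6* fell (-0.21 ± 0.055, adjusted p = 0.00137). Among 7 listed genes for pyrimidine synthesis and uptake, 1 rose (14.3%, against 9.52% of all features) and 2 fell (28.6%, against 9.46%). The rise, in the dihydrofolate reductase gene *dfr1*, was the largest change of that list (0.36 ± 0.045, adjusted p = 7.2e-14). With the t distribution 4 of the 5 falls in the list of uracil-regulated genes passed, without *urh1*, and with equal sums all 7 of its members fell.

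**Figure D3:**
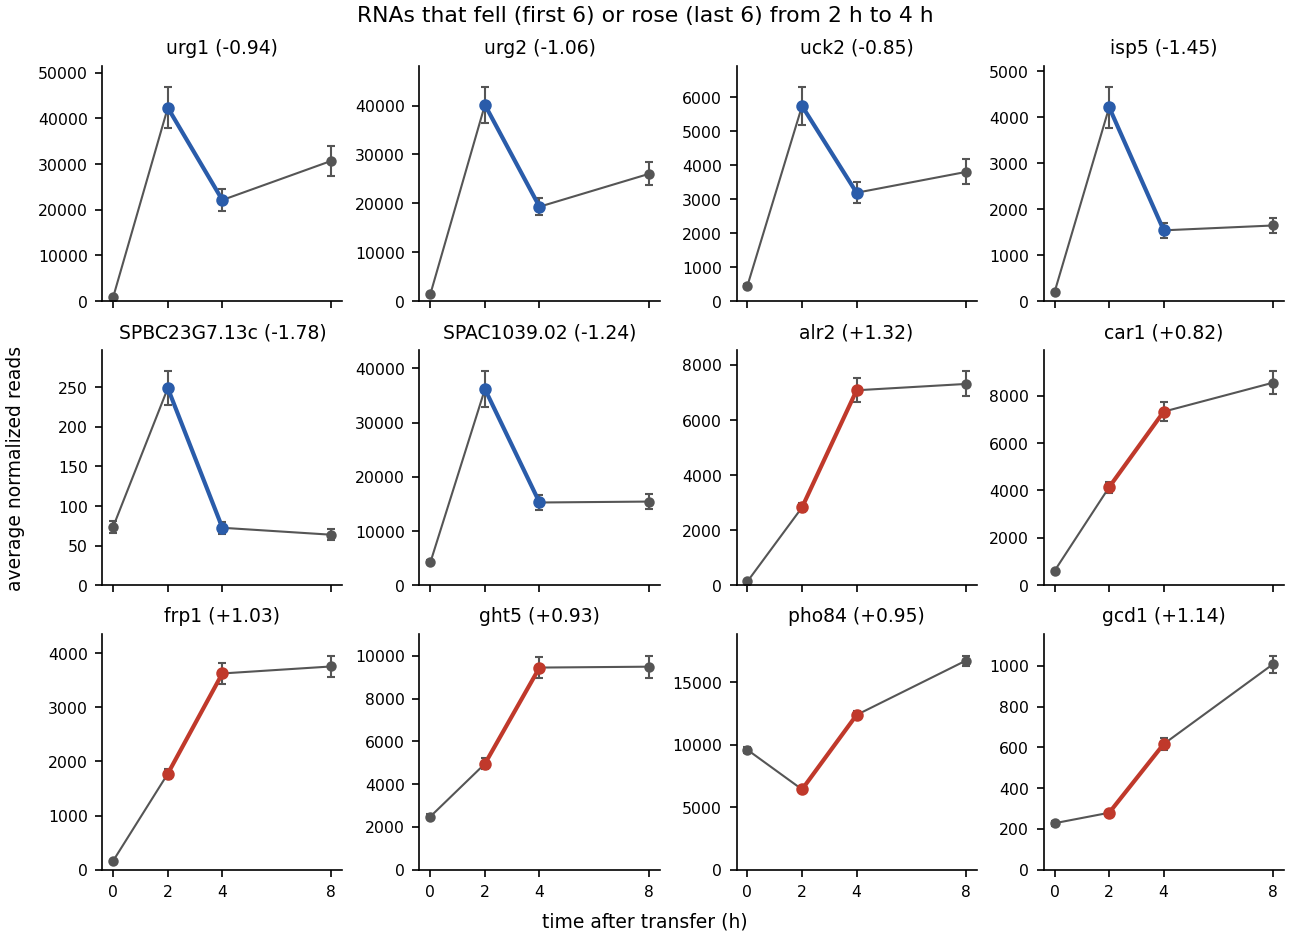
Averages in normalized reads (vertical axes, from 0) at 0, 2, 4 and 8 h after transfer (horizontal axis) of 6 RNAs that fell and 6 that rose between 2 and 4 h; points are the authors' means of 3 libraries, bars are the standard error from the solved dispersion, and the coloured segment is the change from 2 to 4 h, blue for a fall and red for a rise, with its log2 value beside the name. The 6 that fell have their highest point at 2 h, and the 6 that rose have their highest at 8 h.

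Nitrogen genes moved in both directions, and several did not pass. Of 10 genes for the use of arginine, urate, urea and glutamate, 4 rose (40%, against 9.52% of all features). A further 2 fell (20%, against 9.46%) and 4 did not pass (median -0.0085). The falls include the urea transporter gene, which entered through its 2 h average only. With a minimum average of 500, 4 of 9 rose and 1 fell. The urea transporter gene *SPBC23G7.13c* averaged 74.1, 249, 72.6 and 63.8 reads at 0, 2, 4 and 8 h, the lowest ratio of any feature (3.42-fold lower at 4 h, -1.78 ± 0.19). It reached the minimum at 2 h only, and its 4 h average was close to that in YES. The arginase gene *car1*, which splits arginine into ornithine and urea, averaged 614, 4140, 7323 and 8540 (0.82 ± 0.11, adjusted p = 3.7e-11). The next enzyme on that route, the ornithine transaminase *car2*, averaged 13740, 23722, 32723 and 33868 (0.46 ± 0.039, adjusted p = 1.62e-29), and the agmatinase *SPAPB24D3.03* averaged 845, 2209, 3176 and 2885 (0.52 ± 0.058, adjusted p = 1.35e-17). The urea transporter average was thus lower at 4 h, while the RNAs for these 3 enzymes rose.

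Of the glutamate dehydrogenases, the NADP-linked *gdh1* rose from 22569 at 2 h to 28082 at 4 h (0.32 ± 0.074, adjusted p = 0.000341) and the NAD-linked *gdh2* fell from 1303 at 2 h to 1103 at 4 h (-0.24 ± 0.056, adjusted p = 0.00027). The first makes glutamate from ammonium and the second releases ammonium from it. The ammonium transporter *amt1* averaged 1063, 2507, 1862 and 1938 reads at 0, 2, 4 and 8 h (-0.43 ± 0.071, adjusted p = 6.66e-08), and neither *amt2* (-0.11 ± 0.047, adjusted p = 0.097) nor *amt3* (-0.20 ± 0.13, adjusted p = 0.276) passed. Glutamine synthetase, *gln1*, and glutamate synthase, *glt1*, did not pass (0.017 ± 0.10, adjusted p = 0.94 and -0.11 ± 0.062, adjusted p = 0.229). The D-glutamate cyclase gene *dgc1* averaged 261, 679.6, 356 and 325 (-0.93 ± 0.11, adjusted p = 1.31e-14).

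Amino acid permeases moved in both directions, 4 rising and 4 falling among 15 (26.7% each, against 9.52% and 9.46% of all features). With equal sums 2 rose and 5 fell, and with the t distribution 2 rose and 2 fell. The amino acid transporter *isp5* averaged 200.0, 4218, 1540 and 1645 reads at 0, 2, 4 and 8 h, a 2.74-fold fall (-1.45 ± 0.21, adjusted p = 5.49e-10). The transporter gene *SPCC794.04c* averaged 155, 267, 609.7 and 761, a 2.28-fold rise (1.19 ± 0.12, adjusted p = 1.53e-22). The oligopeptide transporter *isp4* averaged 1465, 4985, 7175 and 9485 (0.53 ± 0.12, adjusted p = 0.00026), while the leucine transporter *agp3* averaged 419, 633, 401 and 385 (-0.66 ± 0.081, adjusted p = 3.14e-14) and the proline transporter *put4* averaged 738, 3470, 2504 and 2558 (-0.47 ± 0.13, adjusted p = 0.00339). The alanine racemase gene *alr2*, which interconverts the mirror forms of alanine, averaged 145, 2830, 7081 and 7311. Its 2.50-fold rise was the largest of any coding gene (1.32 ± 0.13, adjusted p = 5.7e-23, 95% interval 1.07 to 1.57), and the level then held to 8 h. The spermidine transporter *mfs3* had a like course, with averages of 1637, 5331, 10068 and 10127 (0.92 ± 0.14, adjusted p = 1.01e-08), and the MatE family transporter *SPAC11D3.06* averaged 537, 559, 1085 and 1277 (0.96 ± 0.089, adjusted p = 2.26e-24).

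Although the medium held phosphate, RNAs tied to phosphate acquisition changed in both directions. The phosphate transporter *pho84* averaged 9592, 6426, 12391 and 16733 reads at 0, 2, 4 and 8 h (0.95 ± 0.049, adjusted p = 2.08e-79), with the smallest adjusted p of any feature. The neighbouring acid phosphatase gene *pho1* averaged 18606, 9984, 15869 and 19242 (0.67 ± 0.056, adjusted p = 3.06e-30). Both were below their YES level at 2 h and rose by 4 h, and at 8 h *pho84* was higher than at 0 h (0.80 ± 0.049, adjusted p = 1.35e-59) while *pho1* did not pass (0.048 ± 0.056, adjusted p = 0.477). A second phosphate transporter gene, *pho842*, fell instead, with averages of 3929, 5907, 4300 and 3313 (-0.46 ± 0.076, adjusted p = 6.94e-08). The glycerophosphodiester transporter *tgp1* (0.036 ± 0.068, adjusted p = 0.786) and the transcription factor gene *pho7* (-0.05 ± 0.064, adjusted p = 0.661) did not pass.

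The extracellular 5'-nucleotidase genes, whose products release phosphate from nucleotides, diverged. *SPAC1039.02* averaged 4231, 36168, 15272 and 15440 reads at 0, 2, 4 and 8 h, a 2.37-fold fall (-1.24 ± 0.18, adjusted p = 7.25e-10). *SPBPB2B2.06c* averaged 29.0, 197, 307 and 375 and rose (0.64 ± 0.11, adjusted p = 4.63e-08), as did its neighbour *SPBPB2B2.05*, with averages of 175, 451, 656 and 520.4 (0.54 ± 0.093, adjusted p = 1.77e-07). The lifespan gene *ecl1*, whose family extends survival in stationary phase, averaged 838, 1241, 599 and 549. It fell 2.07-fold (-1.05 ± 0.07, adjusted p = 2e-48) and at 8 h was below its level in YES (-0.61 ± 0.071, adjusted p = 2.35e-16). Its relative *ecl2* did not pass (0.13 ± 0.054, adjusted p = 0.0676), and *ecl3* was under the minimum average.

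The core stress response, the set of genes that many stresses induce in fission yeast, held members of both kinds. Of 29 above the minimum 11 rose (37.9%, against 9.52% of all features) and 5 fell (17.2%, against 9.46%), with a median of 0.071. With equal sums 8 rose and 9 fell, so no common direction was measured. The ferritin-related gene *rds1* averaged 7010, 7792, 13345 and 21292 reads at 0, 2, 4 and 8 h (0.78 ± 0.082, adjusted p = 4.94e-19), the But2 family gene *SPAC27D7.11c* averaged 3267, 4570, 7968 and 10079 (0.80 ± 0.12, adjusted p = 9.79e-10), and both continued upward to 8 h. The potassium-exporting ATPase *cta3* averaged 39.1, 259, 136 and 171 (-0.93 ± 0.22, adjusted p = 0.00045), and the glutathione S-transferase *gst2* averaged 3152, 2463, 1434 and 1813 (-0.78 ± 0.077, adjusted p = 9.65e-22). The quinone reductase *obr1* fell as well (-0.70 ± 0.10). The small heat shock protein gene *hsp16*, also in the chaperone list, rose from 1626 at 2 h to 2127 at 4 h (0.39 ± 0.079), and the stress-activated transcription factor gene *atf1* (0.10 ± 0.06, adjusted p = 0.246) and the catalase gene *ctt1* (-0.14 ± 0.11, adjusted p = 0.421) did not pass.

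Amino acid synthesis genes fell by small amounts. Of 7 lysine synthesis genes 4 fell (57.1%, against 9.46% of all features) and 0 rose (median -0.19). Of 34 other amino acid synthesis genes 19 fell (55.9%) and 1 rose (2.94%, against 9.52%), with a median of -0.17. A further 10 entries of this second list found no feature. With the t distribution 4 and 13 fell, and with equal sums 6 and 24. At 8 h, 6 of the 7 and 27 of the 34 were lower than at 0 h, against 25.4% of all features. The largest falls were in arginine synthesis, where the carbamoyl-phosphate synthase subunit *arg5* averaged 7610, 8106, 6050 and 5133 reads at 0, 2, 4 and 8 h (-0.42 ± 0.048, adjusted p = 2.28e-16), argininosuccinate synthase *arg12* averaged 11380, 12941, 9750 and 8128 (-0.41 ± 0.055, adjusted p = 6.54e-12) and ornithine carbamoyltransferase *arg3* averaged 2237, 2252, 1707 and 1499 (-0.40 ± 0.062, adjusted p = 4.11e-09). Homocitrate synthase *lys4*, the first enzyme of lysine synthesis, averaged 19056, 20681, 15975 and 12371 (-0.37 ± 0.045, adjusted p = 1.29e-14). In each of these 4 the 8 h average was the lowest. The arginine synthesis genes thus fell over the interval in which the arginine-degrading *car1* and *car2* rose. Of 12 purine synthesis genes 2 fell (16.7%, against 9.46% of all features) and 0 rose, and with equal sums 7 fell.

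Lists for ribosome assembly, ribosomal proteins and the proteasome changed by small amounts that depend on scaling and on the reference distribution. Of 113 ribosome assembly and rRNA processing genes 33 fell (29.2%, against 9.46% of all features) and 0 rose (median -0.092). Of 141 cytosolic ribosomal protein genes 17 rose (12.1%, near the 9.52% of all features) and 0 fell (median 0.10). Of 45 proteasome genes 9 rose (20%, against 9.52%) and 0 fell (median 0.048). With equal sums, 77 assembly genes fell, 0 ribosomal protein genes rose and 5 fell, and 1 proteasome gene rose and 9 fell. With the t distribution 4 assembly genes fell, 0 ribosomal protein genes rose and 2 proteasome genes rose. At 8 h, 101 of the 113 and 125 of the 141 were lower than at 0 h, against 25.4% of all features. The assembly factor *nop16* averaged 2601, 2460, 2028 and 1709 reads at 0, 2, 4 and 8 h (-0.28 ± 0.057, adjusted p = 2.27e-05), and the ribosomal protein gene *rps1102* averaged 12243, 10441, 12374 and 10849 (0.25 ± 0.075, adjusted p = 0.00921). Ribosomal protein genes often exist as near-identical copies whose reads could be divided between them.

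**Figure D4:**
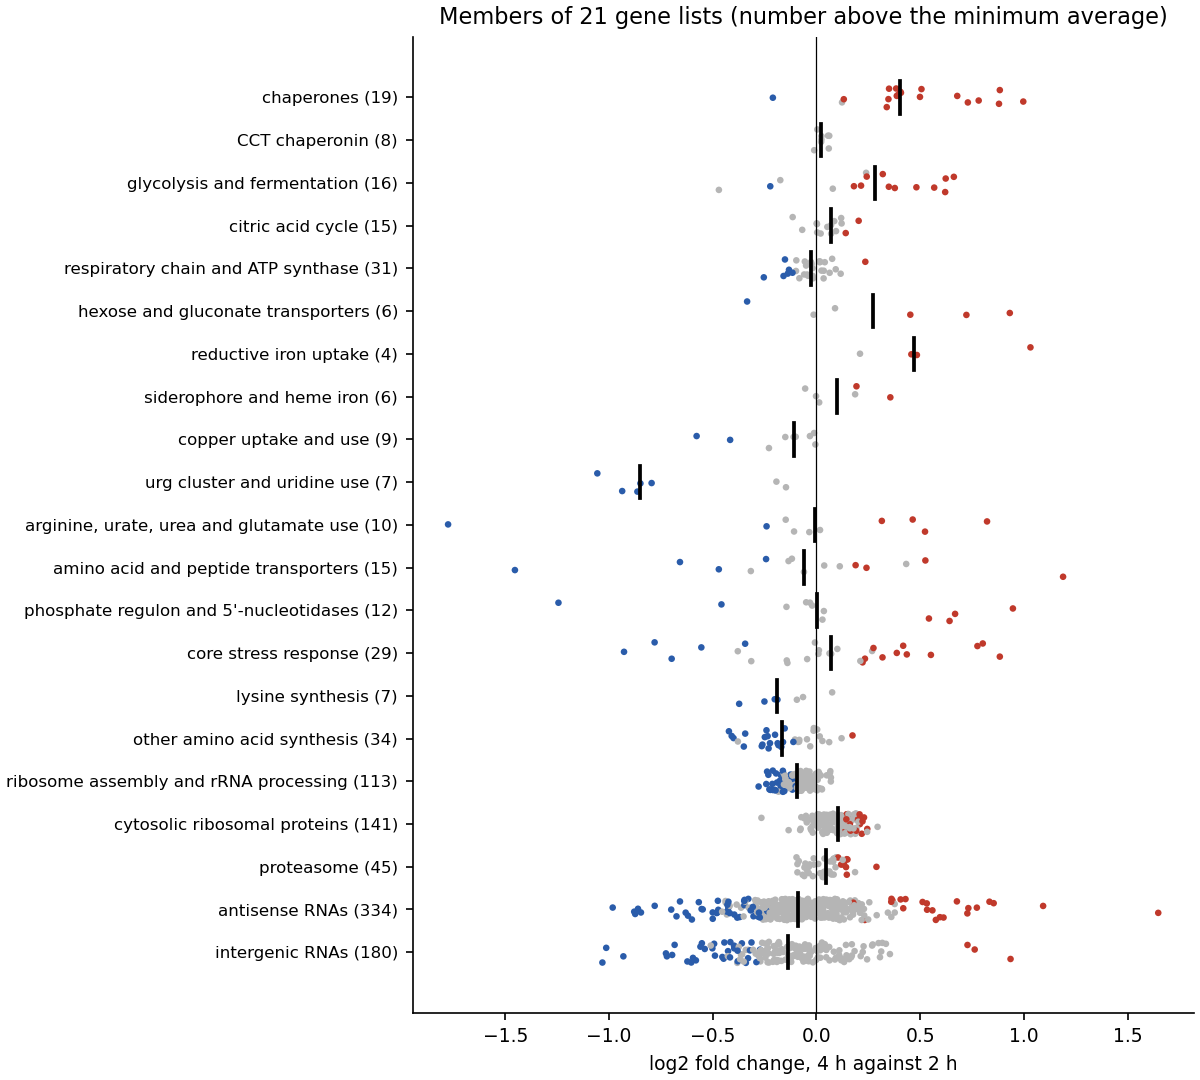
Log2 fold change from 2 to 4 h (horizontal axis) of the members of 21 gene lists (rows, with the number above the minimum average); each point is 1 gene or noncoding RNA, red where it rose, blue where it fell and grey where the adjusted p was above 0.05, and the black bar is the median. Chaperone points lie almost entirely right of 0 (17 of 19 rose), those of the uracil-regulated genes lie left of it (5 of 7 fell), and those of the CCT chaperonin lie close to 0.

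Among noncoding RNAs falls outnumbered rises. Of 554 noncoding RNAs 28 rose (5.05%, against 9.52% of all features) and 81 fell (14.6%, against 9.46%). Their median was -0.10 against 0.0057 for coding genes, with a median standard error of 0.131 against 0.060. Of 180 intergenic RNAs 3 rose (1.67%) and 35 fell (19.4%), and of 334 antisense RNAs 23 rose (6.89%) and 42 fell (12.6%). With equal sums 23 of the 554 rose and 137 fell, and with the t distribution 16 rose and 31 fell, among them 11 intergenic and 20 antisense falls. With a minimum average of 500, 9 of 102 rose and 23 fell. Of the 28 rises 5, and of the 81 falls 12, were in RNAs that reached the minimum of 100 at one time only. The noncoding RNAs averaged fewer reads than coding genes (median 213 against 1510), and the part of this depth difference in the counts was not tested. The library kit kept the strand of each RNA, but whether the counting used it is not stated in these sources. A value for a noncoding RNA that overlaps another gene could therefore hold reads of that gene.

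The largest rise of any feature was that of *SPNCRNA.577*, an antisense RNA that averaged 15.5, 411, 1288 and 1575 reads at 0, 2, 4 and 8 h (3.13-fold, 1.65 ± 0.093, adjusted p = 2.04e-66). On the opposite strand lies *SPBC1652.02*, whose averages were 2499, 2237, 1957 and 2017 and which fell slightly (-0.19 ± 0.066, adjusted p = 0.0219). The antisense RNA thus went up by over 2-fold at a locus where the coding gene did not rise. *SPNCRNA.616*, which lies opposite *otg1*, reached the minimum at 4 h only and averaged 100.3, 49.1, 105 and 97.6 (1.09 ± 0.23), and *otg1* did not pass (-0.01 ± 0.052, adjusted p = 0.929). Among the falls, *SPNCRNA.863* averaged 3945, 4775, 2365 and 1765 (-1.01 ± 0.13, adjusted p = 9.69e-14) and *SPNCRNA.1255*, which reached the minimum at 2 h only, averaged 34.4, 109, 53.4 and 49.1 (-1.03 ± 0.18).

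An overlapping pair of intergenic RNAs on opposite strands, *SPNCRNA.935* and *SPNCRNA.934*, moved in opposite directions. The first averaged 114, 1967, 3763 and 4375 reads at 0, 2, 4 and 8 h and rose (0.94 ± 0.15, adjusted p = 2.13e-08). The second averaged 717, 566, 297 and 243 and fell (-0.93 ± 0.093, adjusted p = 4e-21). At 8 h the first was higher than at 0 h (5.27 ± 0.17, adjusted p = 1.31e-211) and the second lower (-1.56 ± 0.093, adjusted p = 5.39e-61). By the RefSeq annotation they lie between *rpl1002* and the permease gene *per1*, which did not pass (0.11 ± 0.10, adjusted p = 0.484). The label of *SPNCRNA.935* also calls it a possible alternative untranslated region, so whether it is a separate RNA is uncertain.

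In the same annotation 371 noncoding RNAs above the minimum overlap a coding gene on the opposite strand, in 462 pairs. In 32 pairs both partners passed, in the same direction in 20 and in opposite directions in 12. The coding partner passed in 34.8% of the 92 pairs whose noncoding RNA passed and in 22.7% of the 370 others, a difference that was not tested. A pair of antisense RNAs opposite *ght4* parted, *SPNCRNA.1318* rising with it (0.56 ± 0.12, adjusted p = 4.02e-05) and *SPNCRNA.1319* falling (-0.66 ± 0.12, adjusted p = 6.96e-07). Opposite *SPAC1039.08*, which fell (-0.49 ± 0.15, adjusted p = 0.00822), *SPNCRNA.1086* fell too (-0.85 ± 0.13, adjusted p = 5.23e-09). The label of *SPNCRNA.1086* likewise names a possible alternative untranslated region. These pairs were chosen after their values were seen.

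**Figure D5:**
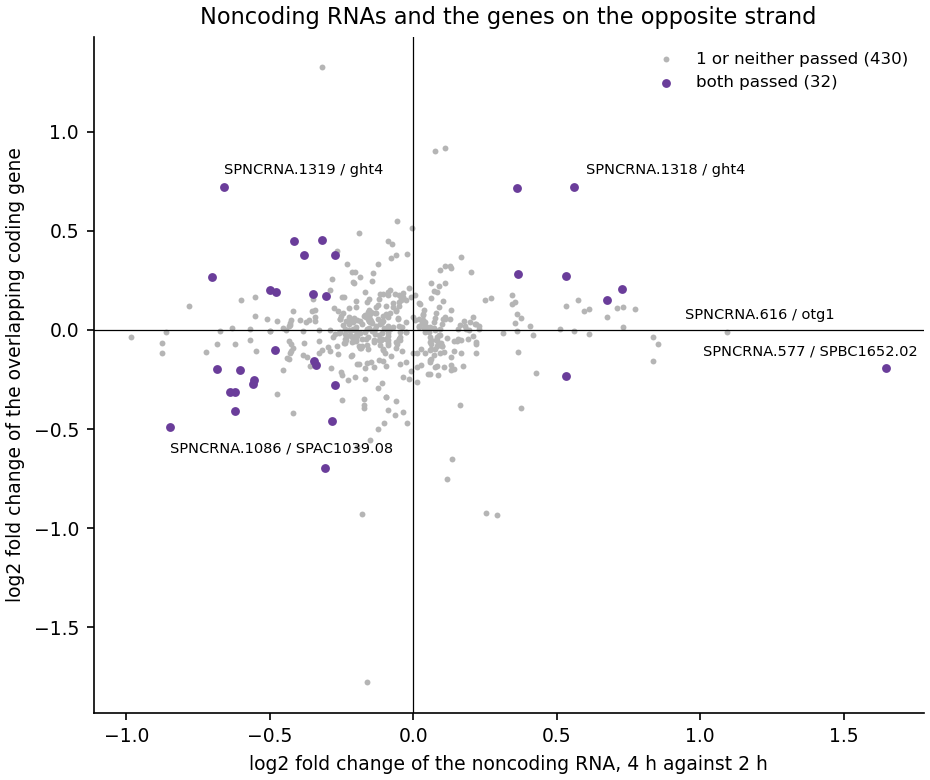
Log2 fold change from 2 to 4 h of a noncoding RNA (horizontal axis) and of the coding gene that overlaps it on the opposite strand (vertical axis); each point is 1 of 462 pairs, purple for the 32 pairs in which both passed and grey for the others. The purple points lie in all 4 quadrants, 20 of them with both partners moving the same way, and *SPNCRNA.577* stands alone at the right.

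Some of the larger changes were next to one another in the order of coding genes above the minimum. This order, from RefSeq assembly ASM294v3, held 4803 genes. Noncoding RNAs and genes below the minimum were left out, so such features may lie between members of a run. Of the 4803, 36 rose and 34 fell by 1.5-fold or more, and 13 of these were in 6 runs. Whether that exceeds the number for genes placed at random was not tested. The rising runs were *pho84* with *pho1* and *ght4* with *frp1*. The falling runs were *urg2*, *urg3* and *urg1*, then *isp5* with *mmf2*, *SPAC1039.01* with *SPAC1039.02*, and *SPAC11D3.18c* with *dgc1*. The mitochondrial matrix protein gene *mmf2* averaged 99.0, 452, 254 and 199 reads at 0, 2, 4 and 8 h (-0.83 ± 0.14, adjusted p = 9.61e-08), the amino acid transporter gene *SPAC1039.01* averaged 1231, 2993, 1761 and 2155 (-0.77 ± 0.17, adjusted p = 0.000162), and the carboxylic acid transporter gene *SPAC11D3.18c* averaged 360.2, 1075, 684 and 608 (-0.65 ± 0.10, adjusted p = 1.76e-09). Close to the last run, the transcription factor gene *SPAC11D3.17* fell as well, with averages of 744, 1517, 1041 and 956 (-0.54 ± 0.062, adjusted p = 3.64e-16).

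Of the remaining large changes, the methyltransferase gene *SPCC70.08c* averaged 1943, 1988, 1047 and 657 reads at 0, 2, 4 and 8 h (-0.92 ± 0.066, adjusted p = 9.63e-42). The pseudogene *SPAC977.13c* averaged 56.2, 176, 85.8 and 90.2 (-1.03 ± 0.23, at the minimum at 2 h only) and the retrotransposon copy *Tf2-11* averaged 158, 199, 103 and 77.2 (-0.95 ± 0.20, adjusted p = 5.94e-05). Both values are uncertain, because near-identical copies elsewhere in the genome could change which reads were counted. This was not tested. Upward, the reductase-like gene *SPAC513.07* averaged 1430, 2044, 3630 and 3423 (0.83 ± 0.093, adjusted p = 4.18e-17), and the fission-yeast-specific gene *SPAPB24D3.07c* averaged 3005, 1711, 3201 and 3899 (0.90 ± 0.069, adjusted p = 7.11e-37). Another such gene, *SPCC338.18*, averaged 59.9, 63.1, 113 and 122 (0.84 ± 0.18), and the WW domain gene *wwm3* averaged 42.3, 80.4, 147 and 145 (0.87 ± 0.20), both reaching the minimum at 4 h only. Of 72 transcription factor genes 11 rose (15.3%, against 9.52% of all features) and 4 fell (5.56%, against 9.46%). With equal sums the balance turned, with 6 rises and 13 falls, and with the t distribution 4 rose and 1 fell. Among them *cbf12*, a CSL family factor, averaged 331, 713, 1064 and 1224 (0.58 ± 0.082, adjusted p = 1.53e-10). The biotin transporter *vht1* averaged 15242, 13149, 9246 and 5962 (-0.51 ± 0.072, adjusted p = 7.62e-11), and the acyl-CoA thioesterase *the4* averaged 519, 1687, 2554 and 2712 (0.60 ± 0.14, adjusted p = 0.0004).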

How the data were processed

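RNA was measured in 12 libraries of wild-type cells at 0, 2, 4 and 8 h, 3 a time. Per the labels and the study's methods, HISAT2 2.1.0 aligned the paired reads (assembly ASM294v2), SAMtools converted the alignments, HTSeq 0.10.0 counted exonic reads and DESeq2 tested the later times against 0 h. The authors deposited, as signal, the mean over each group of counts scaled by size factors, and the standard error of each comparison with 0 h in log2 units. The 0 h averages were identical in the 3 tables, so all averages share 1 scale. The deposited fold changes, Wald statistics and p-values of the authors' comparisons were not used.

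For each feature a dispersion was solved from the standard errors of the 2 h and the 4 h table, with 3 libraries a group, and the 2 values were averaged (median 0.0021). The standard error for 4 h against 2 h followed from that dispersion and both averages. Predicted in the same way, the standard errors for 8 h against 0 h had ratios to those deposited of 1.00 (1st percentile) to 1.01 (99th). P-values were 2-sided Wald values from the normal distribution, adjusted over 5358 features by the Benjamini-Hochberg method. A run on simulated data took its standard errors from known dispersions by the same formula. It therefore checked the calculation only, and not the uncertainty of the dispersions. The 8 h against 0 h calls used the averages and the deposited standard errors over 5378 features. The lowest ratio of the average over the authors' whole fit to the average of the 4 groups, 0.571, is what 12 of 21 libraries would give, so the dispersions seem to draw on 9 further libraries, not analysed here.

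The comparison, the 48 gene lists and the genes named were chosen with earlier results of these data known. Named by rule were the 15 largest rises and falls among coding genes, the 5 largest each way among noncoding RNAs, up to 4 members of each list by size of change, every 2-fold change and 8 genes the study or earlier results discuss; other genes were chosen after their values were seen. Of the list entries, 17 found no feature, 10 of them in the list of other amino acid synthesis genes, and 9 were matched by an older symbol. Gene order and overlaps came from RefSeq assembly ASM294v3, where 6836 of 6988 features were found, and no positions or sequences are given, since the files use ASM294v2. Calculations used Python 3.11.15, numpy, pandas and scipy.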

Additional observations from a re-analysis of the deposited data

How the results depend on the processing

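No paired analysis was possible because the tables hold averages of each time and no values per library, and for the same reason leaving out single libraries was not run. The main counts were 510 features higher and 507 lower at 4 h, with 6 higher and 8 lower by 2-fold or more. With a t distribution of 8 degrees of freedom 180 were higher and 184 lower. With averages rescaled to equal sums 237 were higher and 1246 lower, and 13 were lower by 2-fold or more. Tested against a 1.5-fold change, 11 were higher and 4 lower, of which 3 were lower by 2-fold or more. With a minimum average of 500, 5 were lower by 2-fold or more. Chosen after seeing the data, a doubled dispersion left 209 higher and 232 lower, and a minimum set on the 0 h and 8 h averages left 5 lower by 2-fold or more. The cause of each shift lies in the setting itself: wider tails or errors, a shift of every log2 value by 0.072, a stricter null value, or other features tested. Under the other settings (a minimum average of 10 or none, dispersions from either table or at least the median of similar features, median scaling, a pseudocount of 1 and, added later, fitted depth factors) each of the 4 counts stayed within 1.5 times its main value. No named feature reversed its direction after passing. Precision rests on averages of 3 libraries and on dispersions shared with libraries not analysed here, so noncoding RNAs near the minimum average carry the widest errors.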
